A study of Ovis aries with 6 samples.

Results

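The genes described here are the late-numbered Ensembl sheep genes, defined as every Ensembl sheep gene in the count table whose identifier carries the number 25000 or more, up to 27057, the highest in the table. The rule that set them uses the identifier alone and no measured value, though it was chosen with earlier results of these data known. There were 914 of them among 25609 features, beside 18000 lower-numbered Ensembl genes and 6695 assembled loci, which are transcribed regions built from the reads by StringTie and given MSTRG identifiers. The late numbers are thought to hold mainly long non-coding RNA genes, but the files give no gene type, name or position for any identifier. The genes are therefore called late-numbered genes throughout and are not taken to be non-coding.

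RNA was sequenced from oocytes of Xinjiang Sheep at 2 stages, with 3 libraries per stage and 30 to 35 oocytes pooled in each. Germinal vesicle (GV) oocytes, arrested in the first meiotic prophase with an intact nucleus, were collected without cumulus cells from follicles of 2 to 8 mm. Metaphase II (MII) oocytes, which have extruded the first polar body, came from cumulus-oocyte complexes that were stripped with hyaluronidase and kept in maturation medium for 23 to 25 h at 38.5 °C in 5% CO2. The labels name no genetic change or drug treatment, and stage, culture and the starting oocytes (bare or enclosed in cumulus) differed together and cannot be told apart. The labels treat pools as biological repeats without saying whether they came from different animals, so p-values refer to variation among these pools, which may be technical.

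A growing oocyte stores RNA and then shuts transcription down before it resumes meiosis, so that later changes in a transcript come largely from its stability, storage and degradation. Long non-coding RNAs are transcripts that are not translated, some with known roles at chromatin or in the control of other RNAs, and as a class they tend to be scarcer and more restricted to particular tissues than messenger RNAs. The libraries were made after removal of ribosomal RNA, a method that also retains RNAs without a poly(A) tail.

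Total counts were 26984892 to 28117286 in GV and 28578411 to 31962405 in MII libraries. Levels are CPM, counts brought to a common library total, with totals scaled by TMM (trimmed mean of M-values), which sets the typical feature to no change. TMM factors were 1.16 to 1.17 in GV and 0.769 to 0.910 in MII. Gene lengths were not used here, so a level is the share of reads that a gene drew and not a number of molecules. In libraries from pools, fewer cells with a transcript and less of it in each cannot be told apart. No oocyte or cumulus cell marker could be looked up by name, and the part of cumulus cells left behind was not tested.

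As a whole, the late-numbered genes were more often present, and at a higher median level, than the numbers from 22000 to 24999. Of the 2058 numbers from 25000 to 27057, 914 (44.4%) were in the table, which lists only features with at least 1 count. This share was 81.9% for the numbers up to 20999 and 16.9% for those from 22000 to 24999. The median level was 0.109 CPM among late-numbered genes, 0.0381 CPM from 22000 to 24999 and 2.67 CPM up to 20999. On either side of the boundary, the first 100 late numbers (25000 to 25099) held 18 genes with a median of 0.0802 CPM and the 100 before them (24900 to 24999) held 25 with a median of 0.0394 CPM, so presence did not rise at the boundary itself. Within the late range, presence was 38.8% from 25000 to 25499, 48.8% in the next 500 numbers and 34.5% of the 58 numbers from 27000 upward.

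**Figure D1:**
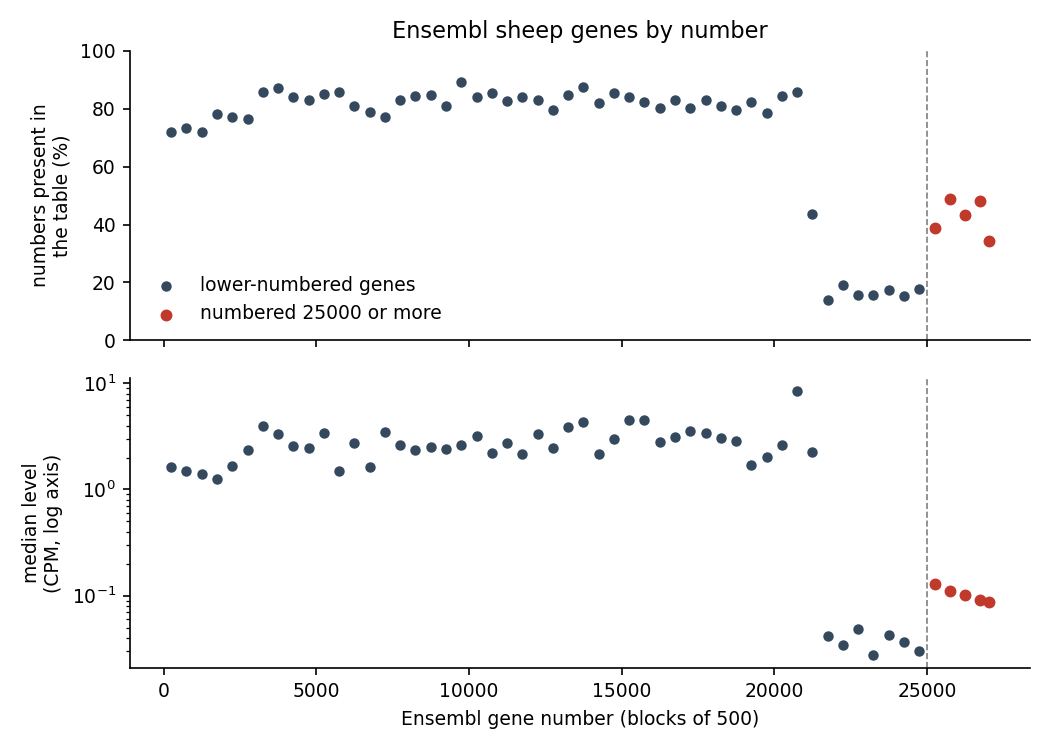
Ensembl gene numbers in blocks of 500, with the percent of numbers present in the count table (top) and the median level in CPM on a log axis (bottom). Late-numbered genes (red, right of the dashed line at 25000) lie between the numbers up to 20999 and those from 22000 to 24999 on both measures.

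Most late-numbered genes drew few reads. Only 189 (20.7%) reached a mean of 1 CPM, 53 (5.80%) reached 10 CPM and 8 reached 100 CPM. Among lower-numbered genes 59.0% reached 1 CPM and 33.9% reached 10 CPM, and among assembled loci 83.6% and 27.1%. The upper quartile of late-numbered genes was 0.635 CPM, below the medians of lower-numbered genes (2.38 CPM) and assembled loci (3.57 CPM). Fewer than 10 counts over all 6 libraries together were found for 344 late-numbered genes (37.6%), against 14.0% of lower-numbered genes and 0.896% of assembled loci. Counts appeared in every library for 417 late-numbered genes (45.6%), and in a single library for 93 (10.2%). These shares were 77.2% and 2.99% for lower-numbered genes and 96.9% and 0.209% for assembled loci.

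The reads of late-numbered genes were concentrated in a handful of them. ENSOARG00000026092, named after its values were seen, was the most abundant and ranked 35 among all features. Its level was 2382, 1938 and 2411 CPM in GV and 2139, 2000 and 2818 CPM in MII. The stages overlapped, and the log2 fold change of 0.05 ± 0.18 (approximate SE) did not pass the test (edgeR quasi-likelihood test, adjusted p = 0.838). With scaling by the total count alone it was −0.41, with an adjusted p of 0.0282 in edgeR, and the adjusted p ranged from 0.0282 to 0.908 over 15 alternatives. This gene held 34.5 ± 2.80% of all late-numbered counts in GV and 37.2 ± 3.98% in MII (SD, n = 3 each). The stages overlapped (two-sided exact permutation p = 0.4). The 20 most abundant late-numbered genes held 80.4 ± 1.23% in GV and 82.3 ± 1.13% in MII, and here the stages did not overlap (two-sided exact permutation p = 0.1). By entropy, the reads were spread as over 21.5 ± 1.70 equally abundant genes in GV and 20.1 ± 2.57 in MII, and the stages overlapped (two-sided exact permutation p = 0.5). The concentration of reads in few genes was thus present in each of the 6 libraries.

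Late-numbered genes took a smaller share of the reads in MII. The GV libraries gave them 0.753, 0.727 and 0.794% of all counts, and the MII libraries 0.581, 0.488 and 0.528%. The means were 0.758 ± 0.0338% and 0.532 ± 0.0466% (SD, n = 3 each), and the stages did not overlap. The two-sided exact permutation test gave p = 0.1, below which 3 against 3 libraries cannot go, and 0.121 after Benjamini-Hochberg adjustment over the 17 library measures computed. Without the most abundant gene the means were 0.496 ± 0.0179% and 0.335 ± 0.0463%, again without overlap. Assembled loci went in the same direction, from 16.3 ± 0.934% to 12.4 ± 1.24%, while lower-numbered genes went from 83.0 ± 0.904% to 87.1 ± 1.29%. The share is relative to the library total. On the TMM scale the summed level of late-numbered genes overlapped between the stages, at 6501, 6192 and 6795 CPM in GV and 6462, 5364 and 6864 CPM in MII.

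Fewer late-numbered genes were detected in MII at an equal total count. In a subsample of 26984892 counts, the lowest library total, the expected number with at least 1 count was 695, 702 and 711 in GV and 629, 592 and 565 in MII. This was 76.9 ± 0.898% of late-numbered genes in GV and 65.1 ± 3.53% in MII (SD, n = 3 each, two-sided exact permutation p = 0.1, 0.121 adjusted over the 17 measures). The difference, MII minus GV, was −11.8 percentage points, beside −3.86 for lower-numbered genes and −0.899 for assembled loci. Those classes had higher counts, and how much of the gap follows from level was not tested. TMM factors differed between the stages, so an equal total is not an equal depth for the typical feature. At a common TMM-scaled depth, an alternative added after the data were seen, the late-numbered share was 73.8 ± 0.603% in GV and 65.8 ± 2.79% in MII (two-sided exact permutation p = 0.1), a difference of −8.02 percentage points, beside −2.19 and −0.699 in the other classes. At least 10 counts in the libraries as sequenced were reached by 320.0 ± 3.00 late-numbered genes in GV and 258 ± 9.29 in MII.

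**Figure D2:**
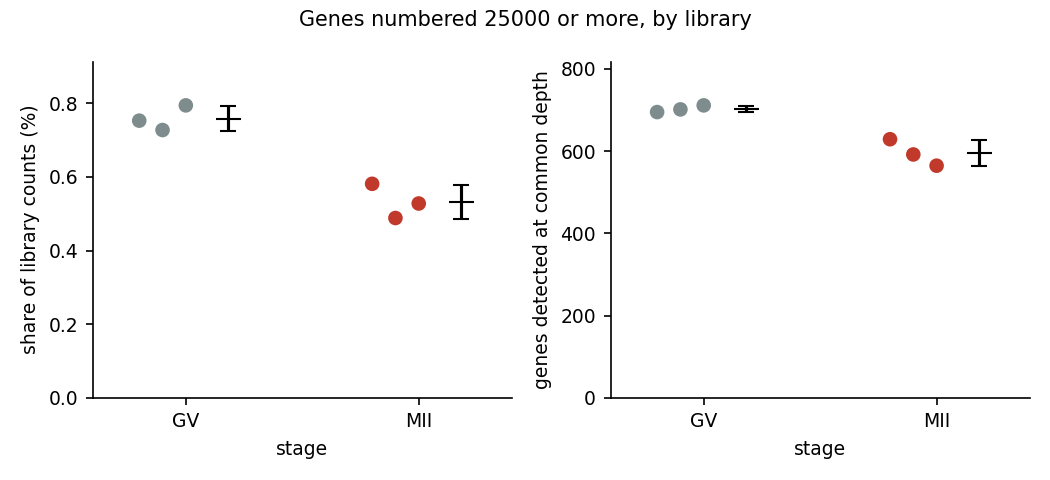
Share of library counts in percent (left) and expected number detected at the common depth (right) for late-numbered genes, by stage. Points are libraries, bars show the mean ± SD of 3 libraries, and every GV library (at least 0.727% and 695 genes) lies above every MII library (at most 0.581% and 629 genes).

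Few late-numbered genes were seen in every library of one stage and in none of the other, and all of these were scarce. There were 19 late-numbered genes of this kind for GV (2.08%, background 0.687% of all features) and 5 for MII (0.547%, background 0.258%), with at most 20 and 17 counts in total. None of them was abundant in either stage. Counts in at least 1 GV library and no MII library were found for 139 late-numbered genes (15.2%, background 3.71%), and the reverse for 49 (5.36%, background 1.92%). These shares were not set beside features of equal level.

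The comparison of MII with GV asks which transcripts change in relative level as the oocyte matures. Of the 914 genes, 285 (31.2%) passed the filter on low counts and were tested, and these held 99.2% of late-numbered counts. The other 629 had a median of 8 counts in total. Lower-numbered genes passed in 69.8% of cases and assembled loci in 96.3%. A gene that passed because it was high in one stage had to differ between stages, so the counts below describe the tested genes and not the whole set.

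Falls outnumbered rises among the tested late-numbered genes. In MII, 79 were lower (27.7%, background 26.2% of all tested features) and 37 higher (13.0%, background 24.7%), and 169 did not pass (edgeR, quasi-likelihood F-test over 19302 features, adjusted p under 0.05). The share that fell was thus close to the background, and the share that rose was below it. Lower-numbered genes rose in 32.0% and fell in 20.2% of cases, and assembled loci rose in 11.1% and fell in 37.8%. The median log2 fold change was −0.33 over tested late-numbered genes, −0.01 over all tested features, 0.26 over lower-numbered genes and −0.50 over assembled loci. Scaling by the total count alone moved the median of all features to −0.45. It gave 13 higher (4.56%, background 12.1%) and 120 lower (42.1%, background 37.0%). TMM factors from lower-numbered genes alone moved the median of all features to −0.25. They gave 24 higher (8.42%, background 17.5%) and 103 lower (36.1%, background 32.1%). Rises were 31.9% of the late-numbered calls, beside 48.5% of the calls over all features. The late-numbered figure was 9.77% with total count scaling and 18.9% with those factors, which lowered rises over all features too. The median of late-numbered genes minus that of all features was −0.33. A scaling shifts both alike, but without MII replicate 1 the difference was −0.44, and without the first 500 late numbers it was −0.26. Without the filter on low counts the difference was −0.48. Over all 914 genes, without the filter on low counts, the CPM of the stages did not overlap for 177 lower (19.4%, background 25.9%) and 82 higher in MII (8.97%, background 23.5%).

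**Figure D3:**
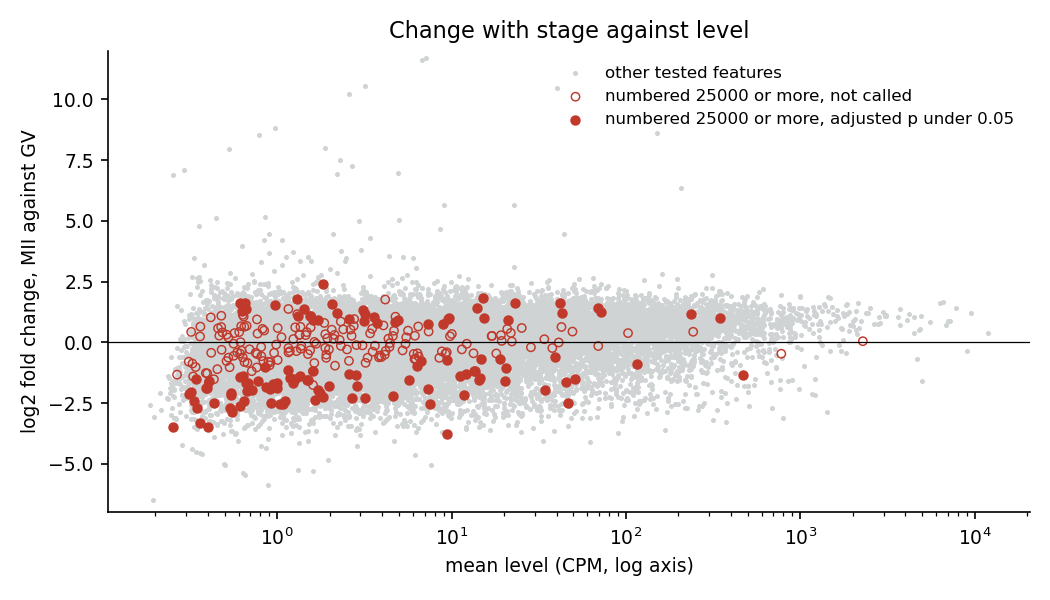
Log2 fold change of MII against GV for each tested feature, against its mean level in CPM on a log axis. Late-numbered genes (red, filled where the adjusted p is under 0.05) lie mostly at low levels, and their changes run from −3.79 to 2.41, inside the cloud of other features (grey).

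The share of calls varied with level in all 3 classes, so late-numbered genes were also set beside features of similar level. Below 1 CPM, 5 of 96 late-numbered genes rose and 32 fell (5.21% and 33.3%), with 8.35% and 17.8% among lower-numbered genes and 2.34% and 47.9% among assembled loci. Between 1 and 3 CPM the late-numbered shares (12.7% and 25.3% of 79) were close to those of lower-numbered genes (14.3% and 23.3%). Between 3 and 10 CPM, 11 of 57 rose (19.3%) and 9 fell (15.8%), fewer falls than among lower-numbered genes (25.7% rose, 23.8% fell) or assembled loci (10.4% and 36.4%). At 10 CPM or more, 11 of 53 late-numbered genes rose (20.8%) and 18 fell (34.0%). Lower-numbered genes at that level rose in 48.2% and fell in 18.5% of 6108 cases, and assembled loci in 20.9% and 30.8% of 1814. Levels within this open range differed, since 1789 of these 6108 lower-numbered genes and 8 of the 53 late-numbered genes reached 100 CPM. Of the 1814 assembled loci, 250 reached it. At 10 to 30 CPM, 5 of 30 late-numbered genes rose (16.7%) and 11 fell (36.7%). Lower-numbered genes there rose in 35.5% and fell in 23.3% of cases, and assembled loci in 17.6% and 33.8%. In both ranges the late-numbered shares were nearer to those of assembled loci than to those of other Ensembl genes, with a smaller gap at 10 to 30 CPM. These are descriptions, since genes are not replicates of a stage.

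**Figure D4:**
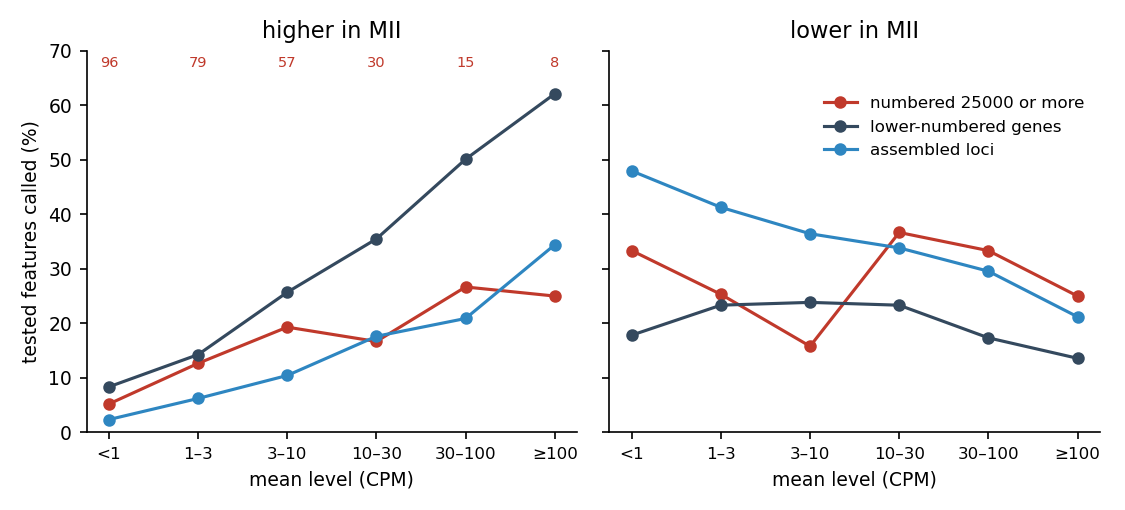
Percent of tested features called higher (left) or lower (right) in MII by mean level in CPM, for the 3 classes. Red figures on the left give the number of late-numbered genes at each level, 96 below 1 CPM to 8 at 100 CPM or more. The share of lower-numbered genes that rose climbs to 62.1% in the highest class, where 2 of 8 late-numbered genes rose.

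Large decreases were more frequent than large increases, as they were over all tested features. Of 285 tested late-numbered genes, 28 were at least 4-fold lower (background 6.59%, 1272 of 19302 features). Only 1 was at least 4-fold higher (background 1.24%, 239 of 19302 features). Among 6448 tested assembled loci, 623 were at least 4-fold lower and 32 higher. Among 12569 tested lower-numbered genes the counts were 621 and 206. Of the 28, 12 were below 1 CPM in GV and 4 reached 10 CPM, and 4 had a MII library with 0 counts. The most abundant of the 28 went from 84.5, 69.6 and 81.6 CPM in GV to 12.8, 19.0 and 9.85 CPM in MII. The single 4-fold rise rested on low counts, with 10, 16 and 30 reads in GV and 116, 68 and 59 in MII, where its level was 4.51, 2.39 and 2.40 CPM. Among the 20 most abundant late-numbered genes (39.1 to 2281 CPM), 6 rose (30%, background 24.7%), 6 fell (30%, background 26.2%) and 8 did not pass. Lower-numbered genes at 30 to 100 CPM rose in 50.1% and fell in 17.3% of cases, and assembled loci in 20.9% and 29.6%. Of the 20, 8 lay above that range.

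The files do not pair identifiers with names, so 2 genes that rose and 2 that fell are named, by their level and by the size of their change. They were picked among called genes whose stages did not overlap, so the call and the separation follow from the choice. ENSOARG00000026531 was the most abundant of the 37 that rose. Its level was 231, 211 and 242 CPM in GV and 401, 442 and 547 CPM in MII. Every MII library lay above every GV library, with a log2 fold change of 1.02 ± 0.17 (approximate SE, edgeR adjusted p = 0.000759) that was 0.57 with total count scaling. ENSOARG00000025585 had the largest rise among those with at least 10 CPM in MII. Its level was 6.88, 4.90 and 8.28 CPM in GV and 18.1, 28.3 and 24.9 CPM in MII. The stages did not overlap, and the log2 fold change was 1.83 ± 0.27 (approximate SE, edgeR adjusted p = 0.000405).

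ENSOARG00000026777 was the most abundant gene that fell. Its level was 555, 716 and 753 CPM in GV and 408, 188 and 193 CPM in MII. MII replicate 1 stood between the other MII libraries and the GV libraries, and the log2 fold change was −1.36 ± 0.29 (approximate SE, edgeR adjusted p = 0.00335), or −1.82 without that library. The assembled locus MSTRG.14046 had the same count as this gene in 5 libraries and a count lower by 1 in GV replicate 2 (22804 against 22805). Whether the same reads were counted under both identifiers was not tested. ENSOARG00000026030 had the largest fall among those with at least 10 CPM in GV. Its level was 17.6, 17.2 and 17.7 CPM in GV and 2.30, 0.702 and 0.814 CPM in MII. The GV libraries were nearly equal, and the log2 fold change was −3.79 ± 0.41 (approximate SE, edgeR adjusted p = 0.000120), or −4.52 without MII replicate 1. Counts behind the MII values were 59, 20 and 20.

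**Figure D5:**
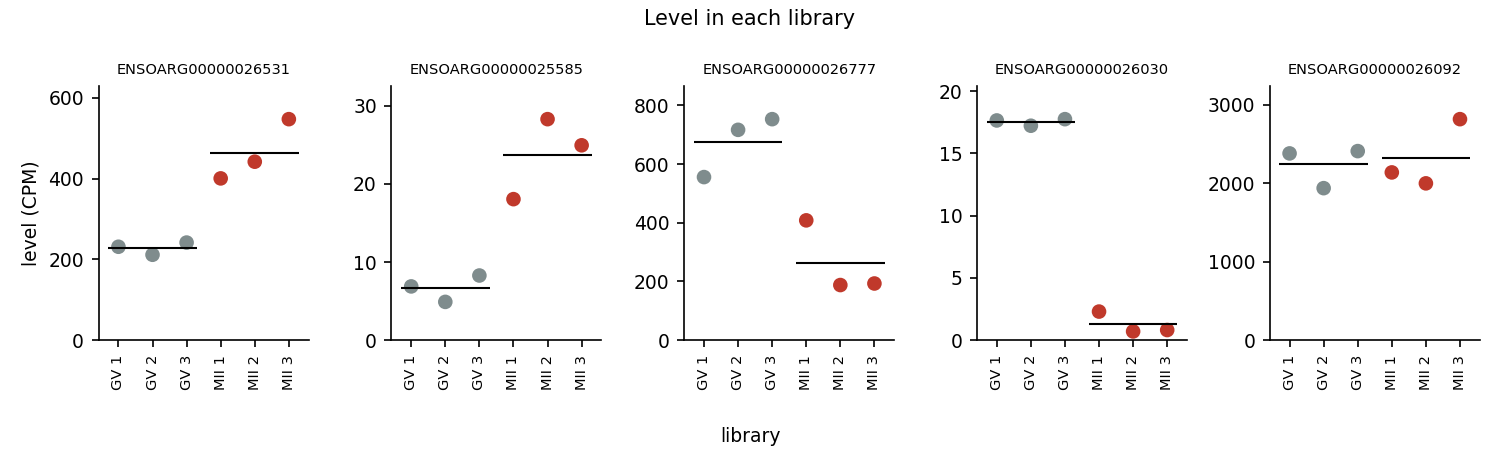
Level in CPM in each library for the 2 named genes that rose, the 2 that fell and the most abundant late-numbered gene (right), each on its own axis from 0. Points are libraries and lines are stage means. The stages separate in the first 4 panels, as the choice of these genes required, and overlap for ENSOARG00000026092.

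A second late-numbered gene also matched an assembled locus within 1% in every library, with totals of 6363 and 6348 counts. Of 101 late-numbered genes with at least 600 counts in total, 19 lay within 10% of some other feature in every library, 8 of them with an assembled locus and 12 with a lower-numbered gene. One gene matched both kinds. ENSOARG00000026531, named above, was among the 19, with a total of 58232 counts beside 58711 and 59656 in lower-numbered genes. How often other features of similar count have such a match was not counted, so the 19 are not a trait of late-numbered genes. Whether matching features share reads was not tested. Without the 19 genes, 34 late-numbered genes were higher (12.8%, background 24.7%) and 73 lower (27.4%, background 26.2%).

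No common direction was seen in late-numbered genes with consecutive numbers, over few pairs. Over 57 pairs of tested late-numbered genes whose numbers differ by 1, Pearson r of their log2 fold changes was −0.176 and Spearman rho −0.160, a description over pairs measured in the same libraries. In 8 pairs both genes were called, and 3 of these went the same way. Among lower-numbered genes both were called in 2026 pairs, and 1114 of these went the same way. The 8 pairs are too few to set these shares apart. In one pair the first was the most abundant of the 28 genes at least 4-fold lower, described above, and the next rose from 12.9, 10.9 and 10.01 CPM in GV to 21.3, 34.5 and 48.1 CPM in MII. Whether consecutive numbers are neighbours on a chromosome was not known here. Among lower-numbered genes r was 0.0223 over 7419 pairs.

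Late-numbered genes varied more between MII pools than between GV pools, as other features did. The median SD of log2 CPM over 3 libraries was 0.26 in GV and 0.43 in MII for the 285 tested late-numbered genes, with 202 (70.9%) more variable in MII, and 0.21 and 0.37 over all tested features, with 74.3% more variable in MII. At 10 CPM or more the medians were 0.19 and 0.30 for 53 late-numbered genes. Pearson correlations of log2 CPM across the tested late-numbered genes were 0.970 within GV, 0.944 to 0.949 within MII and 0.844 to 0.898 across the stages.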

How the data were processed

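The authors deposited 1 table of raw counts, without normalization, for 6 libraries. Tools named in the submitters' processing notes are STAR 2.7.1a, featureCounts 1.6.4, StringTie 2.0, Trimmomatic 0.38 and DESeq2, with the build Oar_v3.1. How they were combined, the strand setting and the handling of reads with several possible origins were not given in the sources used here, so overlapping, antisense or near-identical features may share reads. Per the labels' protocols, 3 µg of RNA per sample entered strand-specific libraries read as pairs of 100 bp.

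The reference at hand, 35057 genes of assembly ARS-UI_Ramb_v3.0, carried 0 Ensembl identifiers, so the 18914 Ensembl identifiers could not be looked up in it. Hence no name, type, position or sequence is given, and marker lists were not analysed here. Features passing filterByExpr (19302) were tested over the whole table with edgeR 4.0.16 in R 4.3.3 (TMM, robust quasi-likelihood F-test, Benjamini-Hochberg adjustment), coded MII minus GV, without a replicate block. The SE is the absolute log2 fold change over the square root of F, an approximation. Log2 CPM for spread and correlations used a prior count of 2. Two-sided exact permutation tests served for library measures. The test was run first on simulated data in which few features changed, so that run does not bear on the scaling here. Alternatives were other scalings, filters, number boundaries, DESeq2 1.42.0, limma-voom (limma 3.58.1), leaving out each library and a replicate block. The genes and rules were chosen with earlier results of these data known. Named genes were, in each direction, the called late-numbered gene without overlap that had the highest level and the one with the largest change at 10 CPM or more in the higher stage.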

Additional observations from a re-analysis of the deposited data

How the results depend on the processing

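Falls outnumbered rises among late-numbered genes under each of the 19 alternatives, as they did among all tested features under 17. The share of late-numbered genes that rose was below that of all features under all 19, and the share that fell was above it under 16 and below it under 3. The 4 genes named by rule kept sign and call under all 15 run for them. Total count scaling gave 13 higher (4.56%, background 12.1%) and 120 lower (42.1%, background 37.0%) with a median log2 fold change of −0.77. TMM factors from lower-numbered genes gave 24 higher (8.42%, background 17.5%) and a median of −0.57. Without the low-count filter, which added scarce genes, the median was −0.55. Leaving out each library in turn, with 307 to 317 tested, gave 28 to 39 higher (9.03 to 12.3%, background 18.4 to 24.4%). It gave 64 to 88 lower (20.8 to 27.9%, background 20.7 to 25.9%) and medians of −0.46 to −0.27. The change in share was −0.250 to −0.204 percentage points, and the change in genes detected was −124 to −92.2. ENSOARG00000026092, which was not called, changed sign with upper-quartile scaling (−0.058), total count scaling (−0.41), TMM on lower-numbered genes (−0.19) and, over the libraries left out, ranged from −0.11 to 0.14, with −0.05 without GV replicate 2 and −0.11 without MII replicate 3. Why values moved between settings was not tested. The replicate block gave 28 higher (9.82%, background 21.2%) and 74 lower (26.0%, background 23.9%). Same-numbered libraries did not deviate together (correlations −0.0892, −0.230 and −0.0304), so the numbers were not used as pairs. The alternative without matching genes was chosen after the data were seen. The 629 genes that the filter removed had a median of 8 counts in total. Without the filter, 7 of these 629 were called higher and 20 lower, so most were not called at this depth. Over all 25609 features without the filter, 18.5% were called higher and 19.7% lower.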
